A study of Mus musculus with 2 samples.

Results

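Open promoters whose DNA is poor in CpG dinucleotides were examined in spleen of male B6CASTF1/J mice 4 days after birth, by DNase-seq, which maps chromatin that the nuclease DNase I can cut. B6CASTF1/J mice come from a cross of the strains C57BL/6J and CAST/EiJ. The data were 2 libraries of whole spleen, biological replicates 1 and 2 of 1 group, whose labels number the males separately but give both the same donor record. No treatment or other group was there to compare with. Peaks of both libraries that overlapped by at least 1 bp were merged into 60596 shared regions. A protein-coding gene counted as open when a shared region reached within 1 kb of one of its annotated start sites. It counted as CpG-poor when the observed over expected CpG ratio was under 0.5 in the window of 500 bp on each side of its most upstream start. This gave 2299 open CpG-poor genes with 3599 regions, out of 9797 CpG-poor genes and 21827 genes in all. The share open was 23.5% of CpG-poor genes, against 89.2% of the 12030 CpG-rich genes and 59.7% of all genes. The members were chosen by the peak calls of both libraries and by the CpG ratio, so their openness and their signal are described here and not tested.

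Most mammalian promoters lie in CpG islands, stretches that keep their CpG dinucleotides, are usually unmethylated and are open in most tissues. CpG-poor promoters are more often tissue-specific, and many depend on factors that bind only in certain cell types. The spleen of a newborn mouse makes red cells and granulocytes while its lymphoid tissue is being filled. In whole tissue, a weak signal from few cells with an open site cannot be told apart from a site that is less open in every cell. The depth of the libraries is unknown, since the deposited peaks carry only a scaled signal, and the factor differs between libraries.

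The sequences below are stretches of the strongest region of members that the results return to, cut to bases outside annotated exons, on the gene's strand in mm10. In the first set capitals mark AGATAA or TGATAA on either strand, the GATA factor motif. Klf1 and Slc4a1 are genes of the red cell lineage and encode an erythroid transcription factor and the band 3 anion exchanger. Isg20 encodes an interferon-stimulated exonuclease.
Klf1, chr8:84901221-84901420, plus strand: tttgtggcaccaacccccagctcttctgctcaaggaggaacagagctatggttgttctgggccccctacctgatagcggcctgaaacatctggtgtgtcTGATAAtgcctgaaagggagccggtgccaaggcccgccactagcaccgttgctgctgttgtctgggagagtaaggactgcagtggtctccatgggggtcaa
Slc4a1, chr11:102365281-102365360, minus strand: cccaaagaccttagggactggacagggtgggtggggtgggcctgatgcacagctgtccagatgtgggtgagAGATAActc
Isg20, chr7:78914081-78914234, plus strand: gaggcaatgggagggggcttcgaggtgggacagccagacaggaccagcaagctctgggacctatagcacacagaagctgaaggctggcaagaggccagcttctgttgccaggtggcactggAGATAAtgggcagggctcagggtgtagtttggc

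In the second set capitals mark GAGGAAG on either strand, a PU.1-type motif, at genes of white cell signalling. Ptpn7 encodes a tyrosine phosphatase and Cd300lf an inhibitory receptor of myeloid cells.
Ptpn7, chr1:135132595-135132699, plus strand: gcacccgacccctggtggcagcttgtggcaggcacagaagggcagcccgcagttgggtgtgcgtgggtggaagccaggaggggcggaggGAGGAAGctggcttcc
Cd300lf, chr11:115133993-115134080, minus strand: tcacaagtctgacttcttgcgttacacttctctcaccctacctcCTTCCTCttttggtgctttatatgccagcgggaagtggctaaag

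In the third set capitals mark AAANNGAAA on either strand, the core of the interferon response motif. Rsad2 encodes the antiviral protein viperin, and Igtp and Irgm1 encode interferon-inducible GTPases.
Rsad2, chr12:26456453-26456580, minus strand: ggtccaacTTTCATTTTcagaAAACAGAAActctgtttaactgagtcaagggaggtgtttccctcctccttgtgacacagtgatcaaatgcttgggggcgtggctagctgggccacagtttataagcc
Igtp, chr11:58199461-58199555, plus strand: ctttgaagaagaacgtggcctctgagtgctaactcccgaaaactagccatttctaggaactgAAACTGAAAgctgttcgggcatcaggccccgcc
Irgm1, chr11:48871421-48871580, minus strand: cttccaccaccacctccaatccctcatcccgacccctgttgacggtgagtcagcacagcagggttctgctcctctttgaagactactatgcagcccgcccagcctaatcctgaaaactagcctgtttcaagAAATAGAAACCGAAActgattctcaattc

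In the fourth set capitals mark CCAAT on either strand, the motif of NF-Y, at 3 genes of MHC class II chains whose signals differed between the libraries more than those of nearly all other members.
H2-Ab1, chr17:34263065-34263208, plus strand: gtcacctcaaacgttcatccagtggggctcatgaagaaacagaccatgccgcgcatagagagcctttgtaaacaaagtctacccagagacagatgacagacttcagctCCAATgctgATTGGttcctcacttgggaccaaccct
H2-Aa, chr17:34287824-34288000, minus strand: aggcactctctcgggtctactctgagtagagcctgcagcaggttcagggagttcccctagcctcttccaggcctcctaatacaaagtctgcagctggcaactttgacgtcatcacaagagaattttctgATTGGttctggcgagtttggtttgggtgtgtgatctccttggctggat
H2-Eb1, chr17:34305721-34305866, plus strand: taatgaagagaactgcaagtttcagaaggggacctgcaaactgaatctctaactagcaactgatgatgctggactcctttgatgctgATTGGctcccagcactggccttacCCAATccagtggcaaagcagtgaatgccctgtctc

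In the last set capitals mark GGGCGG on either strand, the GC box of SP factors, at strong members with no CpG-rich start. Atp2b4 encodes a plasma membrane calcium pump and Prdx3 a mitochondrial peroxidase.
Atp2b4, chr1:133801042-133801180, minus strand: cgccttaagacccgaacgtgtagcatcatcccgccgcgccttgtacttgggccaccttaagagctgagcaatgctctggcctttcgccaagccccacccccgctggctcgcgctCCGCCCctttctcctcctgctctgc
Prdx3, chr19:60874557-60874660, minus strand: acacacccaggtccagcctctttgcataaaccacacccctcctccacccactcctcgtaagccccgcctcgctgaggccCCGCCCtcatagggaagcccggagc

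The share of open genes was higher with each step of the CpG ratio. It was 4.86% of genes with a ratio under 0.1, 13.1% from 0.1 to 0.2, 22.9% from 0.2 to 0.3, 37.3% from 0.3 to 0.4 and 57.0% from 0.4 to 0.5. Above the threshold it was 77.6% from 0.5 to 0.6 and 94.2% at 0.8 and over. The median signal of open genes changed less within the CpG-poor range than above it. It was 1.28 in replicate 1 and 1.11 in replicate 2 under a ratio of 0.1, and 1.90 and 1.67 from 0.4 to 0.5. From 0.5 to 0.6 it was 3.93 and 3.29. The 5 members just inside the threshold ran from Col18a1, a basement membrane collagen, with signals of 0.651 and 0.544, to Rpusd1 with 19.3 and 17.4. Of the 5 open genes just outside, Triqk had 1.67 and 1.52, and Tgm2, a transglutaminase, 15.8 and 12.01.

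**Figure D1:**
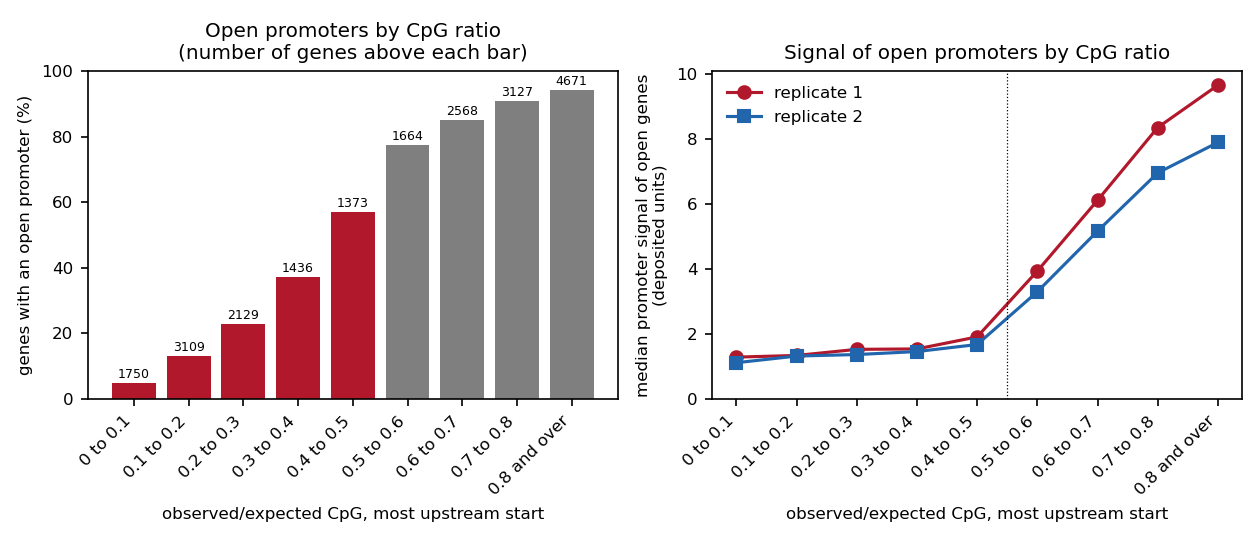
Left, percent of protein-coding genes with an open promoter by the CpG ratio of the most upstream start (red under 0.5, grey at 0.5 and over), and right, the median signal of the open genes in each library, in deposited units. The share open was 4.86% in the lowest class and 57.0% in the class just under 0.5, while the median signal in replicate 1 was 1.28 and 1.90 in those classes.

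The members fell into 3 kinds by their starts. For 1756 genes (76.4%) every start within reach of the open regions was CpG-poor. For 478 genes (20.8%) an open region lay near a CpG-rich start of the same gene further down, and for 65 (2.83%) near a CpG-rich start of a neighbouring gene. Among the 1756, the strongest region of 139 (7.92%) was itself centred on a window with a CpG ratio of 0.5 or over. Members with CpG-poor starts only had a median signal of 1.25 in replicate 1 and 1.19 in replicate 2. Those with a CpG-rich start of their own had 5.30 and 4.20, those beside a neighbour's CpG-rich start 6.87 and 5.97, and open CpG-rich genes 7.78 and 6.36. The log2 ratio of the median of CpG-poor starts only over that of open CpG-rich genes was -2.64 in replicate 1 and -2.42 in replicate 2, and for all members it was -2.30 and -2.15. Among members with CpG-poor starts only, 5.18% in replicate 1 and 5.92% in replicate 2 were above the median of open CpG-rich genes.

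**Figure D2:**
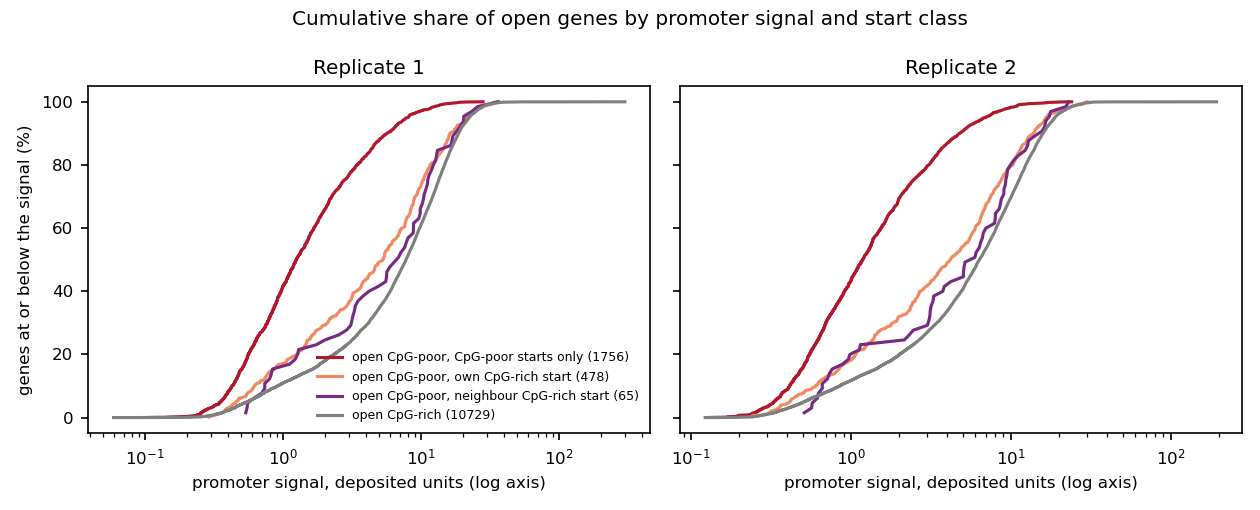
Cumulative percent of open genes by promoter signal, in deposited units on a log axis, for the 3 kinds of open CpG-poor genes and for open CpG-rich genes, in replicate 1 (left) and replicate 2 (right). The curve of the 1756 genes with CpG-poor starts only lies to the left in both libraries, with medians of 1.25 and 1.19.

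The strongest members were largely genes with a CpG-rich start elsewhere. Of the 20 with the highest mean signal, 16 had a CpG-rich start of their own, 2 lay beside a neighbour's and 2 had CpG-poor starts only. Usp37, a deubiquitinase with a ratio of 0.201 at its upstream start, had signals of 36.7 and 30.1. Ruvbl2, an ATPase of chromatin remodelling complexes, had 33.4 and 29.0. Cd82, a tetraspanin of leukocytes and other cells, had 33.3 and 28.8. In each of these 3 an open region reached a CpG-rich start of the gene. Further down the 20, Tollip, an adaptor of Toll-like receptor signalling, had 31.7 and 25.7 with a ratio of 0.0725, and Hnrnpm, an RNA-binding protein, 27.1 and 18.7 with 0.0826. Gmfg, a regulator of actin branching in blood cells, had 25.7 and 22.1 from a region beside the CpG-rich start of Samd4b. For 356 of the 2299 members (15.5%) no region reached the most upstream start. Among the 631 CpG-poor genes with a CpG-rich start further down 496 were open (78.6%), and among the 9166 without one 1803 were (19.7%).

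Strong signal at CpG-poor starts alone was rarer. Atp8b3, a member of the phospholipid flippase family, had signals of 28.1 and 24.0, and its region held 2 GC boxes. The calcium pump gene Atp2b4 had 22.1 and 20.4, Prdx3 19.9 and 19.6, and Cox19, an assembly factor of cytochrome oxidase, 17.8 and 16.9. Slc29a3, a nucleoside transporter, had 18.5 and 14.98. The CpG ratio at the most upstream start of these 5 ran from 0.230 at Cox19 to 0.484 at Prdx3. At Cox19 the strongest region lay 6137 bp downstream of that start, near another CpG-poor start of the gene. At the other end, Gm3115, a predicted gene, had 0.108 and 0.159, and Lcn9, a lipocalin, 0.172 and 0.196. None of the 5 weakest members had a footprint in both libraries.

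Red cell genes stood out in level among the function lists. All 19 CpG-poor genes for red cell membrane and surface proteins were open, against 23.5% of all CpG-poor genes. Like all function lists here, this list was chosen with earlier results of these data known. Among the 19, 18 had CpG-poor starts only. The median signal of the 19 was 5.66 in replicate 1 and 4.22 in replicate 2, against 1.58 and 1.43 over all members. Steap3, the ferrireductase of the transferrin cycle, had signals of 12.3 and 9.81. Slc14a1, the urea transporter, had 11.8 and 8.70, and Mfsd2b, which exports sphingosine-1-phosphate, 9.47 and 6.58. Aqp1, a water channel, had 6.47 and 4.71, and Slc4a1 6.09 and 5.01. Over the whole list signals ran from 1.05 to 12.3 in replicate 1 and from 1.07 to 9.81 in replicate 2. The list thus reached below the median of all members in both libraries.

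Regulators and enzymes of the red cell lineage were open at 14 of 15 CpG-poor genes, all but the mast cell protease gene Cpa3. The share was 93.3%, against 23.5% of all CpG-poor genes, again in a list chosen with earlier results of these data known. Epor, the erythropoietin receptor, had signals of 17.6 and 11.1 at a region centred 855 bp downstream of its nearest start. Nfe2, a subunit of the NF-E2 factor, had 6.86 and 6.05, Klf1 4.34 and 3.46, and Gata1, a master regulator of the lineage, 3.01 and 2.35. Among haem and iron genes Fech, the last enzyme of haem synthesis, had 17.5 and 14.3 and a CpG-rich start of its own. Alas2, the first enzyme of that path in red cells, had CpG-poor starts only and much lower signals of 1.23 and 0.977. Of 10 CpG-poor globin genes 3 were open, a share of 30% that is near the 23.5% of all CpG-poor genes. The adult beta chain gene Hbb-bs had 4.55 and 5.40 and Hbb-bt 4.52 and 4.06. Hba-a1, Hba-a2 and Hba-x were not open by this rule. Some globin genes, such as Hba-a1 and Hba-a2, are near-identical copies. How reads that fit both copies were placed is not given in the sources used here.

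Most listed genes of white cell signalling and adhesion were open. Kinases, phosphatases, adaptors and small G protein regulators of blood cells were open at 40 of 44 CpG-poor genes. That is 90.9%, against 23.5% of all CpG-poor genes, in a list chosen with earlier results of these data known. Its median signals were 1.71 and 2.01. Ptpn7 had 8.58 and 7.58, and the kinase gene Fes 7.64 and 5.87. The strongest region of Fes was centred 998 bp downstream of its nearest start. Rac2, the small G protein of blood cells, had 5.04 and 4.69. Closed members of the list included Gimap4, Gimap6 and Lcp2. Leukocyte adhesion genes were open at 20 of 28, a share of 71.4%. Itga4, the integrin alpha 4 chain, had 14.7 and 16.0 with CpG-poor starts only, and Selplg, the P-selectin ligand, 4.15 and 3.93.

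Lineage genes of white cell types differed in how many were open. These lists too were chosen with earlier results of these data known. B cell genes were open at 27 of 37, a share of 73.0% against 23.5% of all CpG-poor genes, with median signals of 0.893 in replicate 1 and 1.35 in replicate 2. Ebf1, a factor that sets B cell fate, had 2.995 and 4.02, Cd79b, a chain of the B cell receptor, 2.09 and 3.12, and Cr2, the complement receptor, 2.14 and 3.04. Neutrophil genes were open at 17 of 35, led by S100a8 with 1.81 and 2.14. T and NK cell genes were open at 15 of 39, led by the kinase gene Lck with 1.67 and 1.01. Both lists were weak, with medians of 0.737 and 0.683 for neutrophil genes and 0.747 and 0.687 for T and NK genes. Over all members the medians were 1.58 and 1.43. The stricter peak lists of both libraries held 5 of the 17 neutrophil genes and 7 of the 15 T and NK genes. They held 20 of the 27 open B cell genes and 78.7% of all members. The CpG-poor genes of monocytes, macrophages and dendritic cells were open at 12 of 38, a share of 31.6%. Of 6 macrophage markers 2 were open, with summed signals of 2.05 and 2.49, and Csf1r, Adgre1, C1qa and C1qb were not. Among genes of megakaryocytes, mast cells and stem cells 8 of 31 were open, a share of 25.8% that is near that of all CpG-poor genes, and Lyl1, a helix-loop-helix factor, was far above the rest with 14.2 and 11.03.

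Cytokine and interferon genes were mixed. Cytokine and chemokine genes were open at 16 of 54, a share of 29.6% beside 23.5% of all CpG-poor genes, of which Flt3l, the ligand of the FLT3 receptor, had 9.20 and 8.61 and Il12b 2.13 and 1.69. Their receptors were open at 16 of 38, led by Csf2ra with 5.38 and 6.00. Innate sensors and interferon response genes were open at 27 of 53. Tap2, a peptide transporter of antigen presentation, had 8.15 and 8.87, Rsad2 8.66 and 6.64, and Igtp 5.79 and 5.25.

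Lists for other tissues ran from 5.71% open in gut and pancreas to 23.5% in muscle, the share of all CpG-poor genes. Genes of endothelium and stroma, which the spleen also holds, were open at 42.3%. Open were 4 of 38 liver and plasma protein genes, 8 of 34 muscle genes, 2 of 35 gut and pancreas genes, 3 of 23 skin genes, 2 of 22 germ line genes and 11 of 26 endothelial and stromal genes. All 6 hepatocyte markers, Alb among them, were closed. The highest signal in these lists, 13.1 and 12.9 at the muscle actinin gene Actn3, came from a region beside a neighbour's CpG-rich start. Col1a1, a collagen chain, had 2.71 and 2.14 at a region centred 967 bp downstream of its nearest start. Pecam1, an endothelial adhesion protein, had 0.484 and 0.531. Of 6 endothelial markers, CpG-rich genes included, 2 were open, and Cdh5, Emcn, Tie1 and Stab2 were not.

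**Figure D3:**
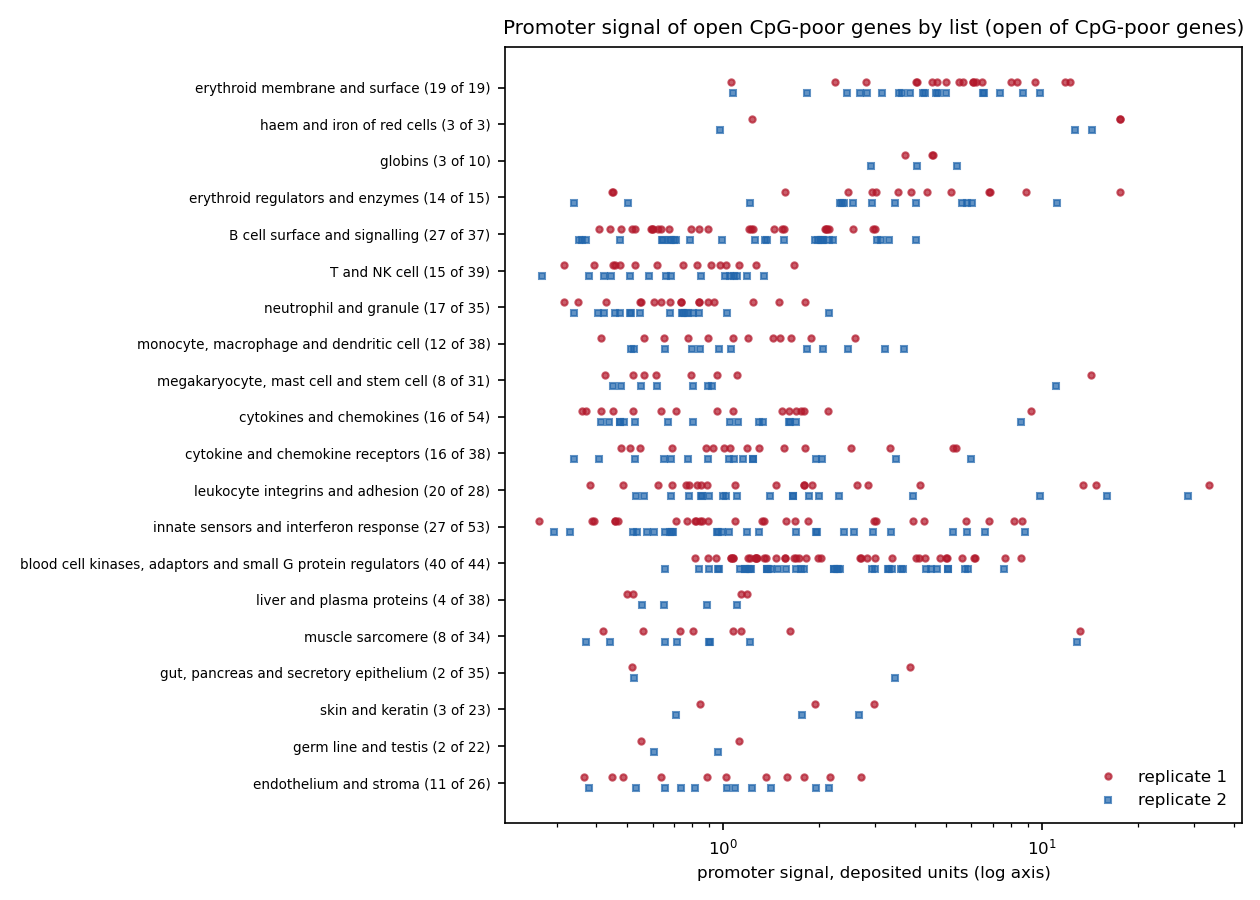
Promoter signal of each open CpG-poor gene in 20 function lists, in deposited units on a log axis, for replicate 1 (red circles) and replicate 2 (blue squares); counts give open of CpG-poor genes. Red cell membrane genes lie near 5.66 and 4.22, their medians, above most genes of the T cell, neutrophil and macrophage lists.

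Some open CpG-poor genes lay side by side. The longest run, unbroken by any other protein-coding gene, was 22 genes on chromosome 13 between 67121660 and 67792512, nearly all of them zinc finger genes. All 22 had CpG-poor starts only. Within the run Zfp87 had signals of 5.32 and 5.39, Zfp729b 4.54 and 4.60 and Zfp953 4.08 and 4.06, while Zfp455 had 0.328 and 0.413. Its genes resemble each other closely, so reads may have been shared between copies. A run of 7 on chromosome 17, between 34203527 and 34369495, held Tap2, H2-Ob, H2-Ab1, H2-Aa, H2-Eb1, H2-Eb2 and Btnl2. A further run of 6 on that chromosome held the cytokine genes Ltb, Tnf and Lta, and a run of 5 on chromosome 11 held the Schlafen genes Slfn5, Slfn9, Slfn8, Slfn2 and Slfn1. Tnf had 1.80 and 1.62, and the Schlafen gene Slfn2, in a family tied to lymphocyte quiescence, 0.769 and 0.679.

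In place and shape, regions of members with CpG-poor starts only were somewhat looser around the start. The strongest region's midpoint was within 250 bp of the nearest start for 73.0% of them, against 85.9% of open CpG-rich genes, with median distances of 75 and 59 bp. It lay upstream of the start for 58.9%, against 73.0%. A single region was found at 71.0% of these members, against 43.8%. The stricter peak lists of both libraries held 75% of them, against 94.5% of open CpG-rich genes. By region they held 72.4% of all member regions, 85.8% of open CpG-rich promoter regions and 69.1% of all shared regions. The number of shared regions with no start within 1 kb was counted around each gene. The median within 50 kb was 3 for members with CpG-poor starts only, 1 for closed CpG-poor genes and 3 for open CpG-rich genes. None lay within 50 kb of 13.7% of these members, against 47.7% of closed CpG-poor genes (39.7% when olfactory and vomeronasal receptor genes were left out) and 12.3% of open CpG-rich genes.

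Footprints are short stretches inside open regions that the authors called protected from cutting. They were found in both libraries, overlapping each other, in 76.0% of the 2581 member regions with no CpG-rich start within 1 kb. The share was 77.3% of open CpG-rich promoter regions, 78.2% of regions away from starts and 77.8% of all shared regions. At equal signal the sets parted in the middle classes, and less at the ends. When all shared regions were split by signal into 10 classes of equal size, in class 5 77.9% of these member regions had such a footprint, against 47.3% of open CpG-rich promoter regions and 86.8% of regions away from starts. In class 8 the shares were 97.5%, 91.4% and 98.7%. In class 1, the weakest, they were 28.3%, 27.1% and 38.2%, and in class 10 100%, 99.9% and 100%. In each library alone the share with a footprint was higher in these member regions than in CpG-rich promoter regions, by 3.53 percentage points in replicate 1 and 5.35 in replicate 2 (exact sign-flip p = 0.5, the smallest that 2 libraries allow). The share with a footprint in both libraries was lower in these member regions, as given above, and it was also lower by gene: 83.5% of members with CpG-poor starts only had a footprint in both libraries, against 96.2% of open CpG-rich genes, which more often had several regions. Over all member regions, also those near a CpG-rich start, the most footprints in both libraries were 14, at Nadk, a NAD kinase. That region lay on chromosome 4 from 155563321 to 155563860 (mm10), with signals of 9.45 and 10.6. Next came a region of Csf2ra, a chain of the GM-CSF receptor, with 10 footprints, and regions of Ssc4d, a scavenger receptor protein, and of Zfp217 with 9 each. In member regions with no CpG-rich start within 1 kb the most was 9, so those of Nadk and Csf2ra had one that near. Open CpG-rich promoter regions also reached 14.

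**Figure D4:**
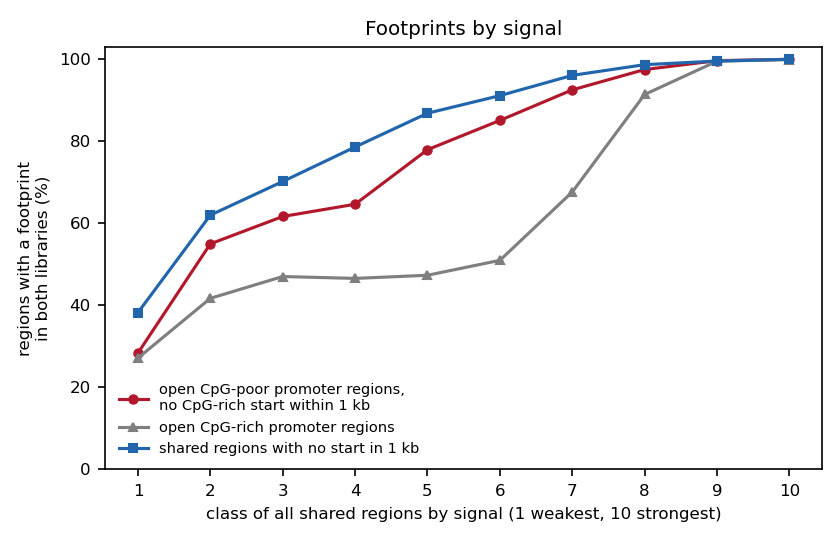
Percent of regions with a footprint in both libraries, by 10 equal classes of all shared regions ordered by signal, for open CpG-poor promoter regions without a CpG-rich start (red), open CpG-rich promoter regions (grey) and regions with no start within 1 kb (blue). In class 5 the shares were 77.9%, 47.3% and 86.8%, and in classes 9 and 10 the curves meet. In class 1 the red and grey points were close, at 28.3% and 27.1%.

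Sequence motifs were counted as letter matches on both strands of the reference. Promoter windows ran from 250 bp before to 50 bp after the most upstream start. Among members with CpG-poor starts only, the 93.1% open at that start were used, beside all 7498 closed CpG-poor and 10729 open CpG-rich genes. The GC box GGGCGG was in 37.6% of the members' windows, 9.86% of closed CpG-poor windows, 70.3% of open CpG-rich windows and 44.9% of windows of all genes. The KLF motif CCACCC was in 40%, 23.2%, 36.4% and 32.4% of these sets. The PU.1-type motif was in 19.8%, 13.8%, 11.9% and 13.3%, highest in the members. The GATA motif was in 16.9%, 28.4%, 8.15% and 16.3%, and was thus more frequent in closed windows. These sets differ in base composition, which was not adjusted for: the median GC content was 53.7% in the members, 46.3% in closed CpG-poor windows and 62.3% in open CpG-rich windows. TATAAA on the gene's strand between 40 and 15 bp before the start was in 1.53% of the members, 5.21% of closed CpG-poor genes and 0.736% of open CpG-rich genes.

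Between the function lists the motifs were spread unevenly. In windows of 300 bp on the strongest region, the GATA motif was in 9 of 19 open red cell membrane genes and 5 of 14 open red cell regulators, against 11.6% of all members and 2 of 27 open B cell genes. It was also in 5 of 10 open genes of chemokines and their receptors and 4 of 15 of T and NK cells, and in 0 of 3 open globin genes. The PU.1-type motif was in 14 of 40 open signalling genes of blood cells and 8 of 27 open B cell genes, against 16.9% of all members, 2 of 12 open genes of monocytes, macrophages and dendritic cells and 3 of 19 red cell membrane genes. The interferon motif was in 9 of 15 open Schlafen and guanylate binding genes, against 8.26% of all members. In the list of innate sensors and interferon response genes it was in 7 of 27 open genes. CCAAT was in 7 of 11 open MHC genes and 43 of 88 open zinc finger genes, against 33.3% of all members. The GC box and NRF1 matches lay in footprints more often than the lineage motifs. In member regions with no CpG-rich start, 26.8% of GC boxes and 57.1% of NRF1 matches (CGCNTGCGC) lay wholly inside footprints of both libraries. The same held for 2.54% of GATA and 1.03% of PU.1-type matches, while footprints of both libraries covered 9.16% of the bases. In open CpG-rich promoter regions these shares were 30.4% of GC boxes, 64.9% of NRF1 matches, 4.16% of GATA and 2.98% of PU.1-type matches, with 14.1% of the bases covered. A match counted only when all its bases lay in footprints, so the shares of bases covered are not the shares expected of whole matches.

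The libraries ranked the members alike, with a Spearman rank correlation of 0.979 across the 2299 genes, which are not independent replicates. After centring on the median over all shared regions, a log2 ratio of 0.16 for replicate 1 over replicate 2, the ratio of 99.4% of members was within 2-fold. Replicate 1 was higher for 50.7% of members and replicate 2 for 49.3%. In the red cell membrane list replicate 1 was higher for 16 of 19 genes (median centred log2 ratio 0.26), and among red cell regulators for 12 of 14 (median 0.19). In the B cell list replicate 2 was higher for 24 of 27 (median -0.36), and in the MHC family for 10 of 11 (median -0.54). Each library is labelled as the spleen of 1 numbered male, so these differences have no test.

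The members with the largest excess in replicate 2, among those above the median signal, were led by antigen presentation genes. H2-Aa had a signal of 1.51 in replicate 1 and 3.21 in replicate 2, a centred log2 ratio of -1.26. H2-Eb1 had 1.88 and 3.68 (-1.13), Cd74, the invariant chain, 1.22 and 2.20 (-1.02), and H2-Ab1 1.19 and 2.05 (-0.95). The fifth was Zmynd8, a chromatin reader, with 7.75 and 12.8. The largest excess in replicate 1 was at the region shared by Bcl2l2, a survival factor, and Gm20521, with 2.44 and 1.03 and a ratio of 1.09. Fundc2 and F8 shared a region with 3.27 and 1.65. Over the whole marker lists, CpG-rich genes included, the summed signal of B cell markers was 5.96 in replicate 1 and 8.22 in replicate 2 (5 of 6 open, Vpreb1 closed). That of red cell markers was 37.8 and 27.6 (6 of 6 open), of which Epor alone gave 17.6 and 11.1. Unlike the ratios, these sums are not centred, and over all shared regions the median log2 ratio of replicate 1 over replicate 2 was 0.16. The part of cell makeup in these ratios and sums was not tested.

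**Figure D5:**
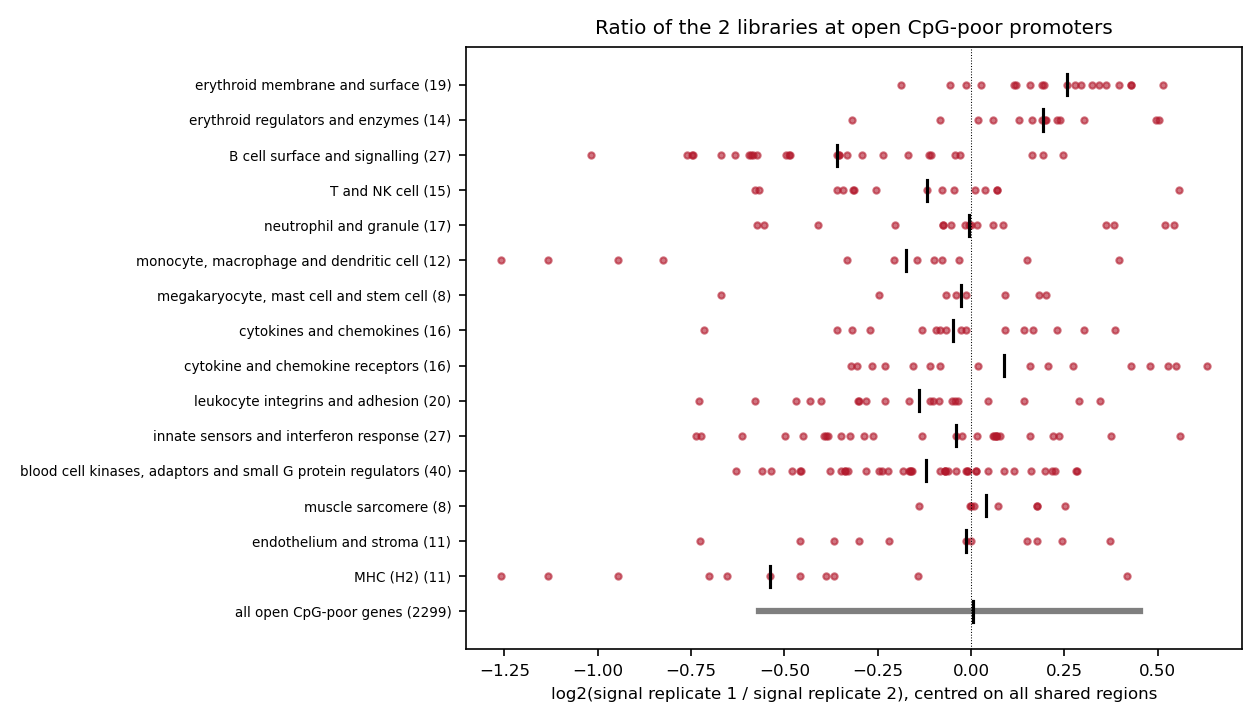
Centred log2 ratio of promoter signal in replicate 1 over replicate 2 for open CpG-poor genes of 15 lists, 1 point a gene, with the median as a black bar; the grey line spans the 5th to 95th percentile of all 2299 members. Red cell lists lie to the right (medians 0.26 and 0.19), and B cell and MHC genes to the left (medians -0.36 and -0.54).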

How the data were processed

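DNase-seq peaks and footprints of 2 spleen libraries, 1 group, were used as the authors deposited them on mm10, per the labels. Each peak carries a signal whose scale is not stated, called by the authors on each library alone. The longer lists held 80323 and 88723 peaks and the stricter ones 51123 and 56521. The 217159 and 252901 deposited footprints carry a q-value of 0.01 throughout. For the aligner, the callers and the handling of CAST/EiJ reads, versions and settings are not given in the sources used. A gene's signal is the highest peak of each library among shared regions within 1 kb of any of its starts. Genes and starts were the protein-coding ones of the GENCODE vM21 basic set, merged by gene name. All peaks lay inside the 21 reference chromosomes of GRCm38.p6, from which sequences were read. Motifs were counted in windows of 150 bp on each side of a region's midpoint. The code was tested on simulated peaks and sequences with known answers. Tools were pysam 0.24.0, scipy 1.17.1, pandas 2.3.3, numpy 2.4.6 and Python 3.11.15.

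The members, the 20 function lists, the 26 gene families named by symbol and the 17 motifs were chosen with earlier results of these data known. Named were the 20 strongest members, the 6 strongest open and up to 3 closed genes of each list, the 5 strongest with CpG-poor starts only, the 5 weakest, the 5 nearest the threshold on each side, the 5 largest library ratios each way and the 5 regions with most footprints. Not all that the rule names are printed, and a few others (such as Alas2, Col1a1 and Pecam1, genes of the runs and markers) were chosen after their values were seen. Alternatives were other CpG limits and windows, other distances, the stricter lists, a reciprocal overlap of 50%, each library alone and a floor at each library's median signal. With 1 group of 2 libraries only an exact sign-flip test over libraries was possible, whose smallest p is 0.5. In the text it is given for the share of regions with a footprint, and differences in signal are described without it.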

Additional observations from a re-analysis of the deposited data

How the results depend on the processing

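No paired analysis was possible because there is 1 group, with no second group to pair it with. The log2 ratio of medians was added to the alternatives after seeing the data, and it stayed negative under every alternative run. Changes below are those beyond 1.5 times for counts, beyond the 95% Wilson interval for shares, and beyond the SD between libraries for signals and the log2 ratio. Values are given in the order genes open, regions, percent open, median signals of replicates 1 and 2, percent with CpG-poor starts only, percent with a footprint in both libraries, percent with a GATA motif and log2 ratio, with those that did not change left out, except where 1 library is left out.

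With a CpG limit of 0.4 there were 1516 genes and 2386 regions, 18% of genes were open, the median of replicate 1 was 1.47, 69.9% had CpG-poor starts only and 15.3% of windows a GATA motif. With 0.6 there were 3590 genes and 5598 regions, 31.3% open, medians 2.14 and 1.95, 81.3% with CpG-poor starts only, 12.1% with a GATA motif and a log2 ratio of -1.89. A CpG window of 250 bp gave 22.2% open and 67.6% with CpG-poor starts only. Requiring every start under 0.5 gave 19.7% open, medians 1.30 and 1.22, 96.4% with CpG-poor starts only and a log2 ratio of -2.49. A distance of 500 bp gave 21.3% open, and 2.5 kb 28.2% open and 15.2% with a GATA motif. The stricter lists gave 18.4% open, medians 2.26 and 2.04, 73.1% with CpG-poor starts only, 85.7% with a footprint and a log2 ratio of -1.81. Reciprocal overlap gave 21.7% open, medians 1.77 and 1.62, 79.9% with a footprint and -2.09. The floor on signal gave 2393 regions, 16.7% open, medians 2.65 and 2.35, 72.2% with CpG-poor starts only, 89.0% with a footprint and -1.66. With 1 library left out there were 2584 to 2691 genes and 4414 to 4687 regions, 26.4% to 27.5% open, 77.7% to 78.4% with CpG-poor starts only, 83.9% to 86.8% with a footprint in the library kept, 13.7% to 13.8% with a GATA motif and log2 ratios of -2.54 to -2.46. The median was 1.29 in replicate 1 alone and 1.11 in replicate 2 alone. The causes were not tested, apart from what each limit leaves out by construction. Depth is unknown, so closed means only that no shared peak was called.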

Other observations

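Gene families named by symbol differed widely in how many of their CpG-poor members were open (23.5% over all CpG-poor genes). The families were chosen with earlier results of these data known. Open were 88 of 137 zinc finger genes of the Zfp series, 8 of 12 S100 calcium-binding protein genes and 15 of 25 Schlafen and guanylate binding genes. By contrast, 6 of 1132 olfactory receptor genes, 2 of 105 keratin genes, 0 of 329 vomeronasal receptor genes and 0 of 25 NK receptor genes of the Klr family were open. Solute carriers were open at 48 of 151 and cytochrome P450 genes at 14 of 89. The median signals of the open zinc finger genes were 1.69 and 1.54, and those of the 6 open olfactory receptor genes 0.524 and 0.521.

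By chromosome, the share of CpG-poor genes open was 31.1% on chromosome 13 and 29.9% on chromosome 17, which hold the zinc finger and MHC runs. It was 15.8% on chromosome 14, 17.1% on the X chromosome and 0.568% on the Y chromosome, where 1 of 176 was open. With olfactory and vomeronasal receptor genes left out, it was 36.4% on chromosome 13, 37.3% on chromosome 17, and 17.4% on both chromosome 14 and X. Only 1.63% of member regions with no CpG-rich start were mostly repeat-masked sequence, against 7.29% of shared regions with no start within 1 kb.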
